A study of Rattus norvegicus with 192 samples.

Results

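The hippocampus of female rats born to chow-fed dams was compared between 9 rats injected with complete Freund's adjuvant and 5 injected with saline, 16 days after the injection. These 14 arrays, 1 per rat, were taken by their titles from the 192 arrays of the series, and repeat hybridizations were left out. All 14 animals were adult Sprague Dawley rats with no genetic modification named in the labels. Their dams ate standard chow through pregnancy, they were weaned on postnatal day 22, and they were injected into the skin of the tail base at 50 to 65 days of age. The adjuvant group received 0.1 ml of a suspension at 12 mg/ml. Groups used for comparison were the hippocampus of the daughters of pairfed dams (an isocaloric liquid diet free of ethanol) and of ethanol dams (36% of calories from ethanol on gestation days 1 to 21), each with 9 adjuvant and 5 saline rats at day 16. The hippocampus of control rats at day 39 (8 adjuvant and 6 saline) and the prefrontal cortex of the same 14 control rats served as further comparisons. No litter is named in the labels, and the p-values treat rats as independent.

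Complete Freund's adjuvant is killed mycobacteria in oil, and in rats it sets off a polyarthritis with fever, an acute phase response of the liver and activation of the hypothalamic-pituitary-adrenal axis. The hippocampus carries many corticosteroid receptors and is a known target of stress hormones and of circulating inflammatory signals. Such signals reach the brain largely through the endothelial cells of its vessels. Ceramides are membrane lipids with signalling roles, and ceramidases such as Acer2 split them into sphingosine and a fatty acid. Bulk tissue was measured, so fewer cells of a type and less RNA per cell cannot be told apart.

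Levels are given as log2(signal + offset) after background correction and normalization. A difference is adjuvant minus saline from limma with its standard error (SE), and a call means an adjusted p below 0.05. Per array, 8527 to 11235 probes were detected, at a detection p below 0.05, and the median correlations with the other hippocampus arrays were 0.939 to 0.973. The lowest number of detected probes belonged to saline replicate 1. Of 15 marker genes of the hippocampal neuron fields, 8 were detected on all 14 arrays. By difference 7 of the 15 lay higher and 8 lower (median -0.06), the lowest being Fibcd1 (-0.57) and C1ql2 (-0.50). Neurod6, a transcription factor of pyramidal neurons, had mean levels of 11.45 and 11.51 in adjuvant and saline rats. Markers of neighbouring tissue varied between single rats: the summed level of 15 choroid plexus genes ran from 13.20 to 15.36 in adjuvant and from 13.54 to 15.12 in saline rats, and that of 11 thalamic genes from 10.30 to 12.75 and from 10.10 to 12.14. Hemoglobin RNA differed with the injection. The hemoglobin score, the mean level of 5 hemoglobin probes, was 9.70 ± 0.39 (SD, n = 9) in adjuvant and 9.05 ± 0.23 (SD, n = 5) in saline rats, a difference of 0.65 (exact two-sided permutation over 2002 splits, p = 0.00649, 0.0130 after Benjamini-Hochberg adjustment over 2 measures). Under median scaling the hemoglobin score, adjuvant minus saline, was 0.52 (p = 0.0919, exact permutation). The number of detected probes differed by -40.0 (exact permutation p = 0.930). The part of this score in the results below was tested only as a covariate in the fit, and the amount of blood in the tissue was not measured.

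The promoter of the single called gene, Acer2, is printed with that of Mt1, the metallothionein with the smallest p among the genes known to be induced by glucocorticoids. Sequences are from RefSeq on the GRCr8 build and show the 250 bases before the annotated start, 5′ to 3′ on the gene's strand. The Acer2 window is chr5:106437598-106437847, plus strand, and the Mt1 window chr19:10832976-10833225, minus strand. Capitals mark matches to TGCGCNC, a form of the metal response element core, on either strand.
Acer2: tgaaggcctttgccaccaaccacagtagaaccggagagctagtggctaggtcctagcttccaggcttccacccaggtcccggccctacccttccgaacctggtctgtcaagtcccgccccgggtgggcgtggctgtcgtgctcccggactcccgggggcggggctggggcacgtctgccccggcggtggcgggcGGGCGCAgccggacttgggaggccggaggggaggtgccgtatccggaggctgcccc
Mt1: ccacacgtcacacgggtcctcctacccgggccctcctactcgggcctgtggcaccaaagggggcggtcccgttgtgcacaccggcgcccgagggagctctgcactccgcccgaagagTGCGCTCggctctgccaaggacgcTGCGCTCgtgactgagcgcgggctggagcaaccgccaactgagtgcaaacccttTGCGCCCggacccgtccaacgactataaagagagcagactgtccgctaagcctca
Mt1 held 3 matches, at 133, 109 and 55 bases before its start, and Acer2 held 1 on the opposite strand at 56 bases. Of 27457 rat promoter windows of the same length, 12.7% held this motif. The other motif searched on both strands was AGAACA, 1 arm of the glucocorticoid response element, which 17.1% of windows held. These letters did not occur in the windows of Acer2, Mt1 or Lcn2, and the Lcn2 window also held no TGCGCNC.

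Of the 15320 probes tested, 1 was called, and it lay higher in adjuvant rats: Acer2, an alkaline ceramidase of the Golgi. The called share was 0.00653% higher and 0% lower. At an unadjusted p below 0.05, limma found 898 probes, 472 higher (3.08%) and 426 lower (2.78%), or 5.86% in all. The median 95% half-width of a difference, before adjustment, was 0.45 log2, so smaller changes of a typical probe could not be seen with 9 and 5 rats. Adjustment over all probes sets a stricter bar, so changes well above this width could also go uncalled. The median of all probes was -0.0018 and 49.8% lay higher.

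The Acer2 levels of the 9 adjuvant rats ran from 7.24 over a median of 7.68 to 8.46. The 5 saline rats stood at 5.24, 5.29, 5.95, 6.60 and 6.51. Every adjuvant rat thus lay above every saline rat, and the probe was detected in 9 of 9 adjuvant and 3 of 5 saline rats. The group means were 7.74 ± 0.37 (SD, n = 9) and 5.92 ± 0.65 (SD, n = 5). Acer2 rose by 1.84 ± 0.28 log2, 3.59-fold (limma adjusted p = 8.53e-05). Within the 5 chips that held rats of both groups, adjuvant rats were higher on 5, by 0.88 to 2.44. With the hemoglobin score as a covariate the difference was 1.58 (limma adjusted p = 0.0106). Without background correction it was 0.92, and with chip as a block in a fit of only the 14 arrays, which leaves 5 residual degrees of freedom, it was 1.61 and not called (limma adjusted p = 0.864).

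**Figure D1:**
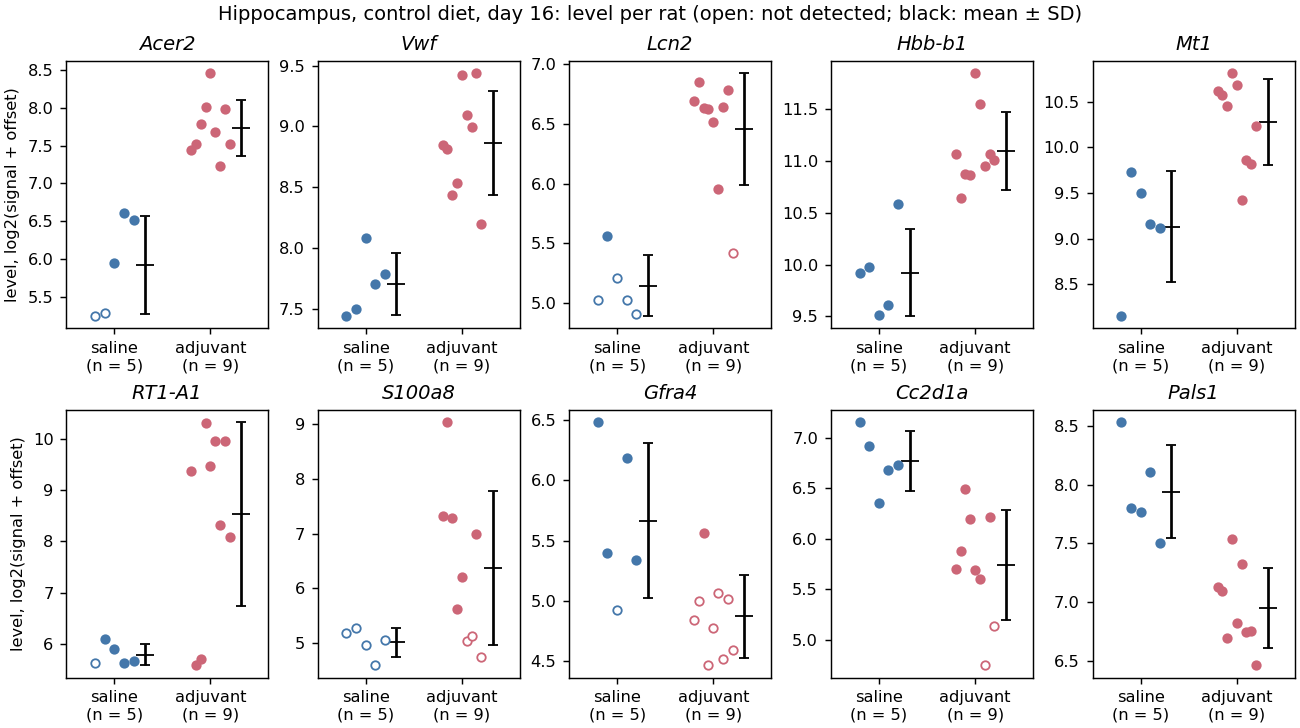
Level per rat, log2(signal + offset), of 10 genes in the hippocampus of control rats at day 16. Each point is 1 rat (5 saline, 9 adjuvant), open where the probe was not detected, with the group mean and SD in black. Acer2, Vwf and Hbb-b1 show no overlap between the groups, and RT1-A1 splits the adjuvant rats into 7 high and 2 low.

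**Figure D2:**
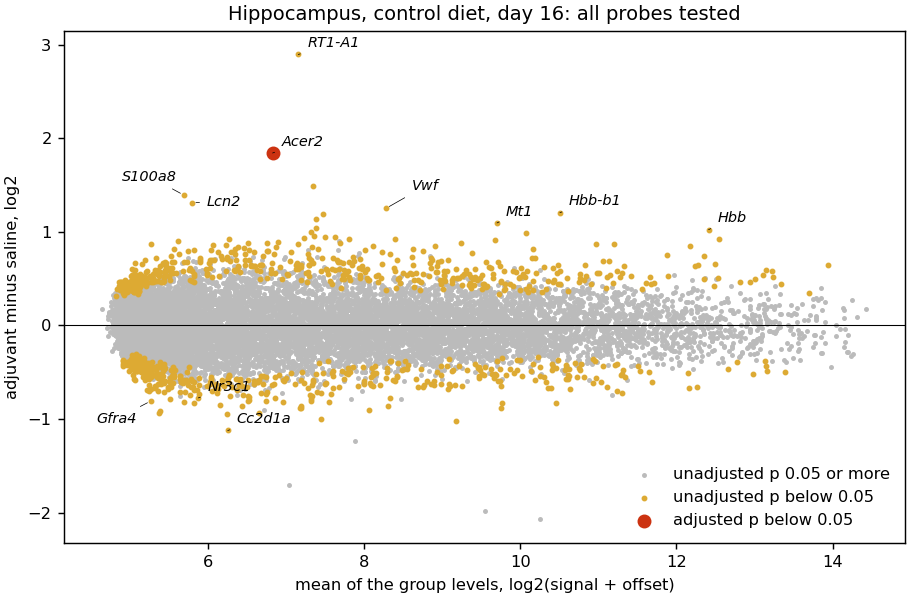
Difference between adjuvant and saline (log2, vertical) against the mean of the group levels (log2, horizontal) for all 15320 probes tested. The single called probe, Acer2, is in red; the 898 probes at an unadjusted p below 0.05 are in yellow.

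The sphingolipid genes were set beside Acer2 to see whether the pathway moved as a whole. Of 19 measured genes of ceramide and sphingosine metabolism, Acer2 included, 12 lay higher and 7 lower. Beside a median of -0.0049 over all 10176 named genes tested, these 19 had a median of 0.07. Of all named genes 49.2% lay higher. Limma called 1 of the 19, Acer2, which was also the only named gene called of the 10176. Without saline replicate 1, 10 of the 19 lay higher (median 0.0047). Sgms1, which makes sphingomyelin from ceramide, stood at 0.58 ± 0.25 (unadjusted p = 0.0262), and Sphk2, a sphingosine kinase, at -0.35 ± 0.20. The lysosomal acid ceramidase Asah1 stood at -0.18 ± 0.21, and the neutral ceramidase Asah2 was detected on 0 of the 14 arrays.

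Across the 12 hippocampus groups the highest Acer2 means were those of the 3 adjuvant groups of day 16, at 7.90 ± 0.37 (pairfed), 7.74 ± 0.37 (control) and 7.59 ± 0.40 (ethanol), each SD over 9 rats. These 3 means differed by less than the spread between rats. Saline rats of day 16 had means of 6.70 ± 0.95 (ethanol), 6.52 ± 0.19 (pairfed) and 5.92 ± 0.65 (control), each over 5 rats. The control saline group was therefore the lowest of the 12 groups, and its 5 rats overlapped with the range of 5.59 to 8.16 of the ethanol saline rats. At day 39 the control means were 6.93 ± 0.58 in 8 adjuvant and 6.63 ± 0.45 in 6 saline rats, and the groups overlapped.

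The Acer2 response was 1.37 in pairfed and 0.83 in ethanol rats at day 16 and 0.30 in control rats at day 39. In these responses limma called 2 probes higher in pairfed rats (0.0131%, Acer2 at an adjusted p of 0.0415 and Lcn2), 1 lower in ethanol rats and 0 at day 39. In the difference tests Acer2 stood at -0.47 ± 0.39 for pairfed minus control and at -1.01 ± 0.39 for ethanol minus control (limma adjusted p = 0.999 and 1.00). Day 39 minus day 16 gave -1.54 ± 0.39 (unadjusted p = 1.74e-04, limma adjusted p = 0.887). None of these differences passed the test. All of them share the same 14 control rats of day 16.

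**Figure D3:**
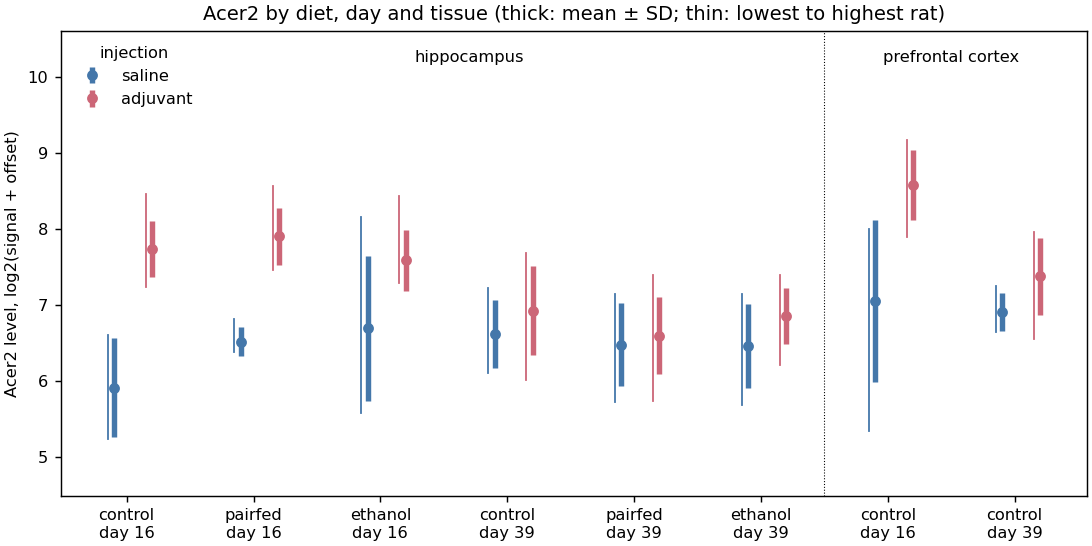
Acer2 level, log2(signal + offset), by diet, day, injection and tissue. Thick bars are mean ± SD and thin lines the lowest to highest rat; groups hold 5 to 9 rats. The 3 adjuvant groups of day 16 have the highest hippocampus means, 7.59 to 7.90, and the control saline group the lowest, 5.92.

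In the prefrontal cortex of the same 14 rats, Acer2 stood at 8.58 ± 0.46 in adjuvant and 7.06 ± 1.06 in saline rats. Levels of the tissues are not set against each other, since each chip held 1 tissue. The response there was 1.56 ± 0.31 in a limma fit of both tissues together over 14441 probes (adjusted p = 0.0111), which called 6 probes, all higher (0.0415%). Cortex minus hippocampus was -0.28 ± 0.43 (limma adjusted p = 0.937), and this difference turned to 0.0580 without background correction, 0.0488 with the authors' values and 0.15 without saline replicate 2. Across the 9 adjuvant rats, hippocampal and cortical Acer2 correlated with Pearson's r = 0.40 (exact permutation over 362880 pairings, p = 0.284) and Spearman's rho = 0.38 (exact permutation p = 0.312). Without the 2 rats farthest from the hippocampal median, r was 0.47 (exact permutation p = 0.281). Only this gene was examined in this way.

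Single vessel, blood and acute phase genes lay higher, but none was called. The endothelial and acute phase lists as a whole held as many lower as higher genes, as given below. Vwf had the smallest p after Acer2 and encodes the von Willebrand factor, which endothelial cells store and which binds platelets. Its levels ran from 8.20 over a median of 8.85 to 9.44 in adjuvant rats and stood at 7.44, 7.50, 8.08, 7.71 and 7.78 in saline rats, so the groups did not overlap. The difference was 1.25 ± 0.27, 2.38-fold (limma adjusted p = 0.110), with adjuvant rats higher on 5 of 5 chips by 0.82 to 1.66. It was called without background correction (0.91, limma adjusted p = 0.0119), with the authors' values, with an offset of 50, with a covariate for detected probes and without adjuvant replicate 9. In the other 23 of 28 alternatives Vwf was not called, and the limma adjusted p reached 0.864. The fit with the hemoglobin score as a covariate was among these 23.

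Lcn2 encodes lipocalin 2, an acute phase protein that binds bacterial siderophores. It was detected in 8 of 9 adjuvant and 1 of 5 saline rats. Adjuvant levels ran from 5.42 over a median of 6.63 to 6.85, and saline rats stood at 5.03, 5.56, 5.21, 5.03 and 4.91. All adjuvant rats except replicate 9 lay above every saline rat, and the difference, against a group of which only 1 rat was above background, was 1.31 ± 0.33 (limma adjusted p = 0.419). S100a8, which forms calprotectin in neutrophils, was detected in 6 of 9 adjuvant and 0 of 5 saline rats, with adjuvant levels from 4.74 over 6.21 to 9.04 and saline levels of 5.17, 5.28, 4.95, 4.58 and 5.05. These 6 adjuvant rats lay above every saline rat and the other 3 within their range. Saline rats were not well above background, so the group means differed by at least 1.91-fold, taking for each saline array the higher of the probe's own level and the lowest level among detected probes (limma adjusted p = 0.472). This bound allows for background only, not for the spread between rats. Cp, the copper-carrying plasma protein ceruloplasmin, was detected in 8 and 0 rats, and its group means differed by at least 1.45-fold by the same bound (limma adjusted p = 0.634).

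Of 24 measured acute phase and NF-kappaB target genes, 12 lay higher and 12 lower, from -0.34 to 1.31 (median 0.0018). Of 18 endothelial genes, 9 lay higher and 9 lower, from -0.34 to 1.25 (median 0.04, or -0.07 with the hemoglobin covariate). The genes named here are mostly from the higher side. Beside Vwf these were led by Slc38a5, an amino acid transporter of brain vessels (0.96 ± 0.30, unadjusted p = 0.00215), and Edn1, the vasoconstrictor endothelin 1 (0.59 ± 0.25). Cldn5, the tight junction protein claudin 5, stood at 0.34 ± 0.19, and the adhesion molecule Sele was detected on 0 of the 14 arrays. Of 7 neutrophil genes 3 lay higher. Csf3r and Cxcr2, receptors on this list, were detected in 0 of 9 adjuvant rats. In saline rats Csf3r was detected in 1 of 5 and Cxcr2 in 0 of 5, so both probes lay near background in both groups. The number of neutrophils was not tested.

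The hemoglobin genes moved with the hemoglobin score, of which they are part. Hbb-b1 ran from 10.64 to 11.85 in adjuvant rats and from 9.52 to 10.59 in saline rats without overlap. Its difference was 1.21 ± 0.31, that of Hbb 1.02 ± 0.29 and that of Hba-a1 0.93 ± 0.29 (limma adjusted p = 0.419, 0.431 and 0.570). Of 9 hemoglobin and erythroid genes, 6 lay higher.

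In 7 of the 15320 probes (0.0457%) every adjuvant rat lay above every saline rat. The named ones were Acer2, Vwf, Hbb-b1 and Mrpl49, a mitochondrial ribosomal protein (0.41 ± 0.18). In 3 probes (0.0196%) every adjuvant rat lay below every saline rat, among them Atp6v1c1, a subunit of the vacuolar proton pump (-0.67 ± 0.21), and Pias2, a SUMO ligase (-0.47 ± 0.16). Mrpl49, Atp6v1c1 and Pias2 were chosen after their values were seen.

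Genes known to be induced by glucocorticoids lay mostly higher in adjuvant rats. Of 20 measured, 15 lay higher and 5 lower, with a median of 0.30 beside -0.0049 over all named genes, of which 49.2% lay higher. None was called, and 7 of the 20 had an unadjusted p below 0.05, all higher, against 6.12% of all named genes. The median per rat of the members' differences from the saline mean ran from 0.14 over 0.35 to 0.55 in adjuvant rats and from -0.13 over 0.05 to 0.06 in saline rats, so the groups did not overlap. Saline rats are centred by construction, since their own mean was subtracted. The list was 1 of 29, chosen with earlier results of these data known, and by this score the groups overlapped in the others. By summed level the groups also did not overlap in the hemoglobin and erythroid list. Its summed levels were 13.72 to 14.75 in adjuvant and 12.89 to 13.58 in saline rats. With the hemoglobin score as a covariate 15 of 20 lay higher (median 0.22), and without saline replicate 1 it was 16 of 20, with 5 at an unadjusted p below 0.05. The list's median was 0.26 in pairfed, 0.21 in ethanol and 0.05 in day 39 control rats, and 0.32 in the prefrontal cortex of the control rats.

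Mt1, a metal-binding metallothionein whose promoter is printed above, ran from 9.42 over 10.45 to 10.81 in adjuvant rats. Saline rats stood at 8.15, 9.73, 9.49, 9.16 and 9.12. All adjuvant rats except replicate 6 lay above the highest saline rat, and the difference was 1.10 ± 0.28, 2.14-fold (limma adjusted p = 0.419). Tsc22d3, the glucocorticoid-induced leucine zipper, had adjuvant levels from 9.96 over 10.54 to 10.91 and saline levels of 9.44, 10.25, 9.56, 9.25 and 10.47. The groups overlapped, with a difference of 0.72 ± 0.20 (limma adjusted p = 0.431). Sgk1, a serum and glucocorticoid regulated kinase, stood at 0.63 ± 0.22, with 8 of 9 adjuvant rats above the highest saline rat and 1 below the lowest. Fkbp5, a co-chaperone of the glucocorticoid receptor, stood at 0.52 ± 0.21, whereas Per1 (0.18 ± 0.21), Klf9 (0.06 ± 0.19) and Dusp1 (-0.02 ± 0.25) lay near 0.

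The glucocorticoid receptor gene Nr3c1 lay lower. Its adjuvant levels ran from 4.85 over 5.25 to 6.32, and saline rats stood at 6.56, 6.51, 6.89, 5.70 and 5.96. The probe was dim, detected in 5 of 9 and 5 of 5 rats, and the groups overlapped (-0.77 ± 0.25, unadjusted p = 0.00327, limma adjusted p = 0.660). The mineralocorticoid receptor gene Nr3c2 stood at -0.22 ± 0.25. Of 10 corticosteroid receptor and CRH system genes, 5 lay higher and 5 lower (median 0.01), and 4 lay higher without saline replicate 1 (median -0.09).

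Complement and antigen presentation genes lay mostly higher without a call. Of 12 complement genes 10 lay higher (median 0.39), and 5 had an unadjusted p below 0.05. C1qa, a chain of the initiating complex C1q made by microglia, stood at 0.57 ± 0.21, with 6 of 9 adjuvant rats above the highest saline rat. C1r, its protease partner, stood at 0.94 ± 0.40 and the factor B gene Cfb at 0.52 ± 0.25. C1r was 0.45 without saline replicate 1, and Cfb 0.29 without saline replicate 3. The list's count was 8 of 12 without saline replicate 1 (median 0.24), with 2 at an unadjusted p below 0.05, and 8 of 12 with the hemoglobin score as a covariate (median 0.12). Of 14 microglia genes 10 lay higher (median 0.15), but 8 did without saline replicate 1 (median 0.06) and 7 with the hemoglobin covariate (median 0.02). Trem2, a lipid-sensing receptor of microglia, stood at 0.41 ± 0.20 and at 0.17 without saline replicate 4.

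Among 18 genes of MHC class I presentation 15 lay higher (median 0.24), and it was 12 of 18 without saline replicate 1 (median 0.10) and 13 with the hemoglobin covariate (median 0.09). RT1-A1, a rat class I heavy chain, had the largest difference of all named genes, 2.90 ± 0.77 (unadjusted p = 3.39e-04, limma adjusted p = 0.419). Its adjuvant rats, replicates 1 to 9, stood at 9.37, 5.58, 5.71, 10.30, 9.48, 9.96, 8.33, 9.96 and 8.09, and saline rats at 5.62, 6.09, 5.90, 5.63 and 5.67. Thus 7 adjuvant rats were high, while 2 adjuvant and all 5 saline rats were low. No level fell between 6.09 and 8.09. In the prefrontal cortex the same 7 rats stood at 7.29 to 10.45 and the other 7 at 4.96 to 6.61.

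Both high and low RT1-A1 rats occurred in each of the other hippocampus groups. Rats were split at the widest gap among the 84 hippocampus rats, between 6.97 and 7.33. At day 16 the high rats numbered 6 of 9 in pairfed adjuvant and 2 of 5 in pairfed saline. In ethanol rats of that day they numbered 3 of 9 and 2 of 5. At day 39 they numbered 5 of 8 in control adjuvant and 3 of 6 in control saline. The adjuvant and saline counts of day 39 were 5 of 7 and 2 of 6 in pairfed and 2 of 9 and 2 of 6 in ethanol rats. The control saline group of day 16, at 0 of 5, was the only one of the 12 groups with none; the part of differences between single rats in its result was not tested. RT1-A3, another class I chain, stood at 1.49 ± 0.70 with 6 of 9 adjuvant rats above the highest saline rat, and its saline replicate 4 was high in both tissues (8.02 and 8.33). Class I genes are near-identical in sequence, and what each probe binds was not examined. The partner chain B2m (0.04 ± 0.21) and the peptide transporter genes Tap1 (0.04 ± 0.26) and Tap2 (0.02 ± 0.32) lay near 0.

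**Figure D4:**
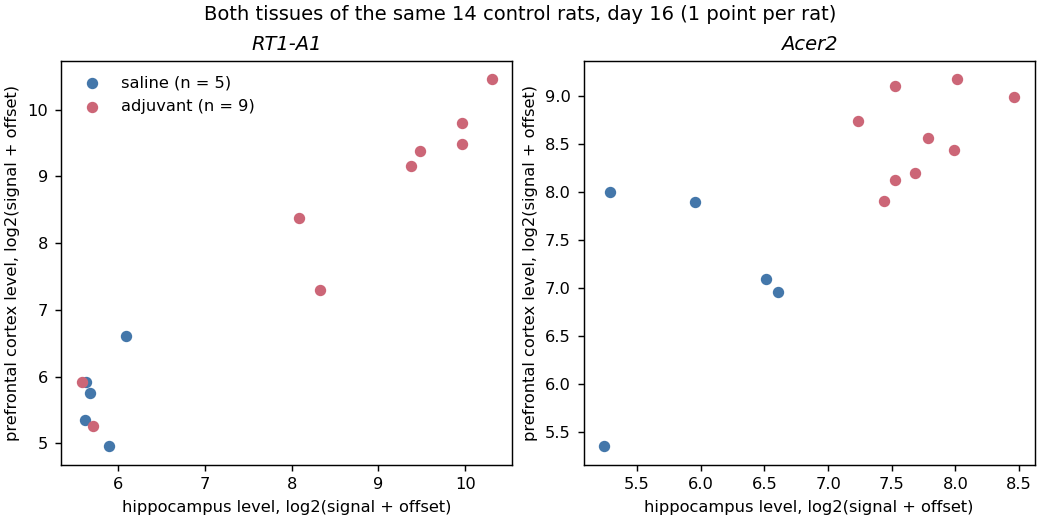
Level in the prefrontal cortex (vertical) against that in the hippocampus (horizontal), log2(signal + offset), of RT1-A1 and Acer2 in the same 14 control rats of day 16; 1 point per rat. RT1-A1 separates 7 adjuvant rats from the other 7 rats in both tissues, while Acer2 saline rats spread more in the cortex.

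Class II genes followed with 5 of 7 higher (median 0.33). RT1-Da, a class II alpha chain, stood at 1.19 ± 0.47 and the invariant chain Cd74 at 0.68 ± 0.32, with 5 of 9 adjuvant RT1-Da levels above the highest saline level. Of 15 interferon-stimulated genes 9 lay higher (median 0.04), but 5 of 15 did without saline replicate 1 (median -0.06) and 7 with the hemoglobin covariate (median -0.0022). Without saline replicate 1 the class II median was 0.21, with 5 of 7 higher.

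**Figure D5:**
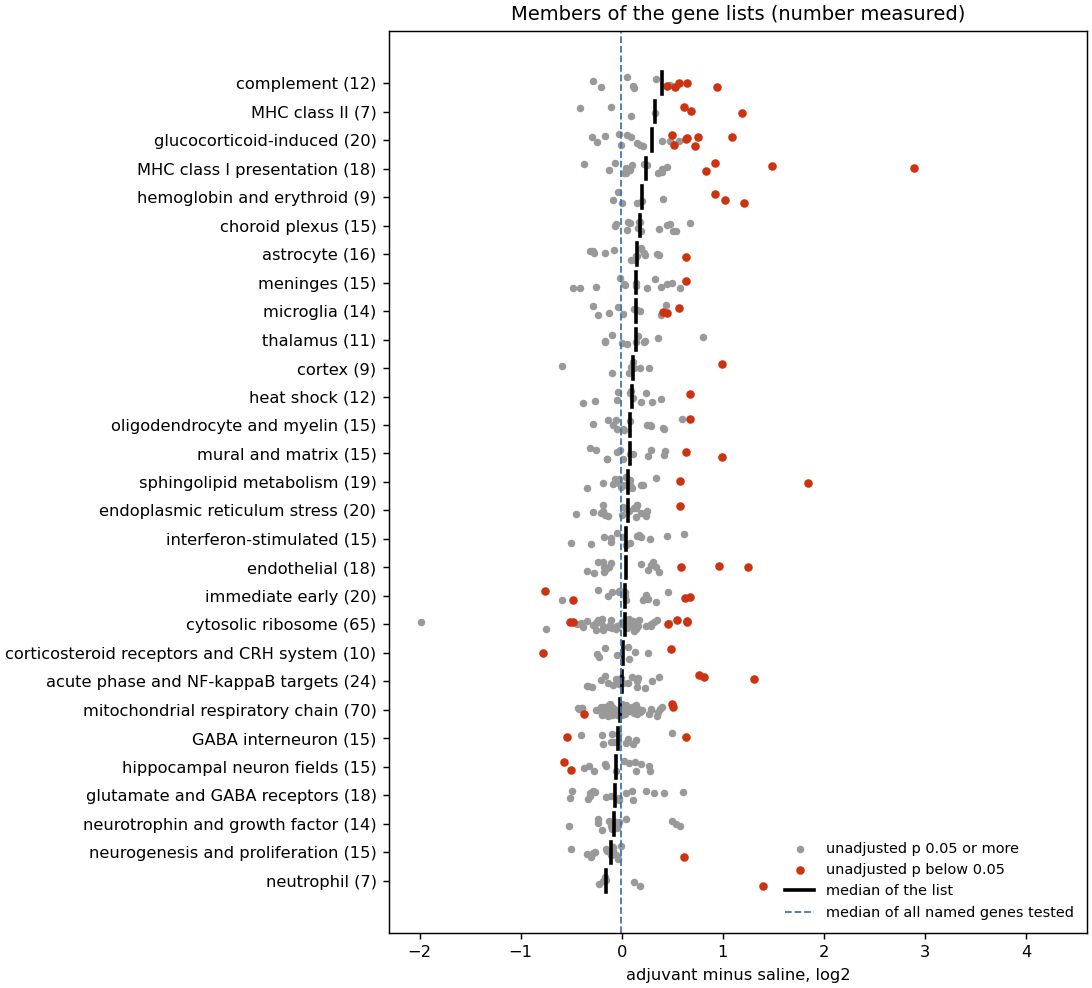
Difference between adjuvant and saline (log2, horizontal) of the members of 29 gene lists, with the number measured in parentheses; red points had an unadjusted p below 0.05, black bars are list medians and the dashed line is the median of all named genes, -0.0049. List medians run from -0.16 (neutrophil) to 0.39 (complement).

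No gene of the neuron and glia lists was called. Of 15 neurogenesis and proliferation genes 14 lay lower (median -0.11), of which the lowest was Sox4 (-0.50 ± 0.27), and the one higher, Sox11, a transcription factor of immature neurons, stood at 0.62 ± 0.25. Of all named genes 49.2% lay higher. Without saline replicate 1, 2 of the 15 neurogenesis genes lay higher (median -0.18). With the hemoglobin score as a covariate 12 lay lower, and none was called. Of 18 glutamate and GABA receptor genes 7 lay higher (median -0.07), or 9 with the hemoglobin covariate and 9 without saline replicate 1, of 15 GABA interneuron genes 6 (median -0.04) and of 14 neurotrophin and growth factor genes 4 (median -0.08), or 7 without saline replicate 1. Sst, the interneuron peptide somatostatin, stood at -0.54 ± 0.24, and Cnr1, the cannabinoid receptor of some interneurons, at 0.64 ± 0.29.

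Of 16 astrocyte genes 11 lay higher (median 0.15), but 7 did with the hemoglobin covariate (median -0.01). S100b, a calcium-binding protein, stood at 0.64 ± 0.19 (limma adjusted p = 0.495). Of 15 myelin and oligodendrocyte genes 10 lay higher (median 0.08), but 5 did without saline replicate 1 (median -0.10) and 6 with the hemoglobin covariate (median -0.10). Cryab, a small heat shock protein on that list, stood at 0.68 ± 0.30 and at 0.45 without saline replicate 1. Immediate early genes were split, 11 of 20 higher, with Egr1 at 0.62 ± 0.23, Dusp5 at 0.67 ± 0.26 and Egr4 at -0.76 ± 0.32. Egr1 was 0.37 without saline replicate 1, and Egr4 -0.50 without saline replicate 4. Of 20 endoplasmic reticulum stress genes 13 lay higher (median 0.06), and the transcription factor gene Xbp1 stood at 0.58 ± 0.19 and at 0.37 without saline replicate 3. Of 12 heat shock genes 8 lay higher (median 0.11), of 70 respiratory chain genes 33 (median -0.02) and of 65 ribosomal protein genes 38 (median 0.03), among the last Rpl24 at 0.65 ± 0.23 and Rpl17 at -0.51 ± 0.18. With the hemoglobin covariate 6 of the 12 heat shock genes lay higher (median 0.06) and 27 of the 65 ribosomal protein genes (median -0.05).

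Tissue bordering the hippocampus was read from further lists. Of 15 choroid plexus genes 13 lay higher (median 0.19), none at an unadjusted p below 0.05, and with the hemoglobin score as a covariate 4 of 15 lay higher (median -0.19). Of 15 meningeal genes 11 lay higher (median 0.15), of 15 mural and matrix genes 9 (median 0.08), of 11 thalamic genes 8 (median 0.15; 4 without saline replicate 1) and of 9 cortical genes 7 (median 0.11). With the hemoglobin covariate 6 of the 15 meningeal genes lay higher (median -0.09), 8 of the 15 mural and matrix genes (median 0.02) and 3 of the 11 thalamic genes (median -0.19). Ccn2, a matrix-associated growth factor that is also a marker of the deepest cortical layer, stood at 0.99 ± 0.33, and Mgp, an inhibitor of calcification, at 0.64 ± 0.26 and at 0.38 without saline replicate 4. Their part in the results was not tested.

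The 10 genes with the smallest p on each side are named. On the higher side Paox, a polyamine oxidase, stood at 0.81 ± 0.21, but a second probe of the gene stood at -0.12 ± 0.22. Sike1, a suppressor of the kinase IKK-epsilon, stood at 0.69 ± 0.19, and Ier3, an immediate early gene, at 0.87 ± 0.24. In all 3 genes no adjuvant rat fell to or under the mean of the saline rats (limma adjusted p = 0.419 for each).

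On the lower side Gfra4, the persephin receptor, had the smallest p (-0.81 ± 0.19, limma adjusted p = 0.382). It was detected in 1 of 9 adjuvant and 4 of 5 saline rats, with adjuvant levels from 4.46 over 4.84 to 5.56 and saline levels of 6.48, 5.40, 4.93, 6.18 and 5.34. The groups overlapped, with saline replicate 3 below 4 of the adjuvant rats. Without that saline rat Gfra4 was called (-1.0, limma adjusted p = 0.0339). Cc2d1a, a scaffold protein and transcriptional repressor, ran from 4.75 over 5.70 to 6.49 in adjuvant rats and stood at 7.15, 6.92, 6.35, 6.68 and 6.73 in saline rats. Only adjuvant replicate 3 lay within the saline range, and the difference was -1.12 ± 0.29 (limma adjusted p = 0.419). Pals1, a cell polarity scaffold, stood at -0.999 ± 0.264, with 8 of 9 adjuvant rats below the lowest saline rat.

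The remaining genes on that side were Bzw2, a regulator of translation initiation (-1.02 ± 0.28), Pak3, a neuronal kinase of dendritic spines (-0.77 ± 0.21), Pop4, a subunit of ribonuclease P (-0.64 ± 0.18), and Cul5, a cullin of ubiquitin ligases (-0.91 ± 0.26). Ghitm, a protein of the inner mitochondrial membrane (-0.72 ± 0.20), Epha5, an axon guidance receptor (-0.88 ± 0.26), and Spats2 (-0.66 ± 0.16) completed them. A second Spats2 probe stood at -0.23 ± 0.27, and Cul5 was detected in 1 of 9 adjuvant rats. In 8 of the 10, every adjuvant rat lay below the saline mean, and in Pak3 and Epha5 8 of 9 did.

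Values of these genes outside the 14 rats are set beside their own. In the pairfed hippocampus at day 16, Vwf stood at 1.22, Hbb-b1 at 1.35 and Mt1 at 0.45. In ethanol rats they stood at 0.47, 0.84 and 0.21, and in day 39 control rats at 0.26, -0.12 and -0.02. In the prefrontal cortex of the control rats they stood at 1.05, 0.80 and 0.58. Lcn2 was detected in 8 of 9 adjuvant and 0 of 5 saline rats of the pairfed group, in 5 of 9 and 3 of 5 of the ethanol group, and in 4 of 8 and 2 of 6 control rats of day 39. On the lower side Cc2d1a stood at -0.51, -0.22, -0.43 and 0.09 in the same order, Gfra4 at -0.05, -0.17, 0.30 and 0.15, and Pals1 at -0.21, -0.05, -0.31 and -0.22. The genes were chosen by their p in the 14 rats, so smaller values elsewhere are partly built in.

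No probe passed the test of a difference in response. Pairfed minus control gave 0 called probes and 547 at an unadjusted p below 0.05 (smallest limma adjusted p = 0.999), ethanol minus control 0 and 659 (0.204), and day 39 minus day 16 0 and 615 (0.799), each of 15320 probes. Prefrontal cortex minus hippocampus gave 0 called and 1055 at an unadjusted p below 0.05 of 14441 (0.0581). The median 95% half-width of these differences was 0.62 to 0.63 log2. The smallest p of the diet tests belonged to Cyp11b1, a steroid 11-beta-hydroxylase, at -1.26 ± 0.27 for ethanol minus control, from responses of 0.11 in control and -1.15 in ethanol rats. Edn1 stood at -1.35 ± 0.35 in that test and the muscle methyltransferase gene Smyd1 at -1.06 ± 0.25. Among pairfed minus control differences Spry3, a Sprouty inhibitor of growth factor signalling, stood at 0.96 ± 0.26 and Ninj2, a cell adhesion protein, at 1.38 ± 0.39. Cyp11b1, Smyd1 and Spry3 were dim, detected on fewer than 42 of the 84 hippocampus arrays. Under other processing or without 1 rat their differences shrank to as little as -0.52, -0.52 and 0.45.

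For day 39 minus day 16 the smallest p was that of Gfra4 at 1.11 ± 0.27, from -0.81 at day 16 to 0.30 at day 39. Fhl3, a LIM domain protein, stood at -1.36 ± 0.37 and Psma3, a proteasome subunit, at 1.14 ± 0.32. Between the tissues Elp6, a subunit of the elongator complex, stood at -1.81 ± 0.38 (limma adjusted p = 0.0581), with 0.85 in the hippocampus and -0.96 in the cortex. It was called when adjuvant replicate 1, 3 or 9 or saline replicate 5 was left out of both tissues (-1.94, -1.94, -1.97 and -2.03, limma adjusted p = 0.0186, 0.0223, 0.0104 and 0.0274). In the other 13 of 17 alternatives Elp6 was not called (limma adjusted p up to 0.39). Under other processing its difference shrank to as little as -0.75. Adam17, the protease that releases TNF from the membrane, stood at 1.32 ± 0.32, and Hpca, the neuronal calcium sensor hippocalcin, at -1.25 ± 0.33.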

How the data were processed

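Per the labels' protocols, 250 ng of total RNA per sample was amplified and hybridized to Illumina rat BeadChips. Per the file headers, the authors' deposited non-normalized table pairs each array's signal with a detection p-value, and its values show the signal to be on the log2 scale. The authors' deposited value table, also log2, was used as an alternative. How the images were processed is not stated in the labels.

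Linear signals were background-corrected by normexp (detection p-values, offset 16), quantile-normalized across all 192 arrays and log2-transformed (limma 3.58.1, R 4.3.3, statmod 1.5.0). Differences of dim probes are therefore understated. Probes detected (p below 0.05) on 5 or more of the 84 hippocampus arrays, 15320 in all, were fitted with limma over 12 groups and chip as a fixed block, with Benjamini-Hochberg adjustment over all of them. The cortex comparison used rat as a random block (correlation 0.0327). Of 22502 probes, 13787 had 1 gene symbol, 0 several, and 8715 are unnamed here. A gene entered a list with its brightest probe. Members and lists were chosen with earlier results of these data known. Named genes were those called, or the 10 with the smallest p per direction where fewer than 10 were called, up to 3 per list by smallest p, and the 5 smallest of a difference test where fewer than 5 were called; further list members were named for their known role after their values were seen. Code was tested on simulated data.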

Additional observations from a re-analysis of the deposited data

Results flagged for a closer look

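Among 106 groups examined, 4 held a rat that stood apart from the others by Dixon's criterion, and chance gives about 1 in 20. Sike1 was highest in adjuvant replicate 1, at 9.85 beside a next value of 9.43. Hba-a1 was lowest in saline replicate 3, at 11.27 beside 12.21. RT1-A3 was highest in saline replicate 4, at 8.02 beside 6.53. Sst was lowest in saline replicate 3, at 9.84 beside 10.54.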

How the results depend on the processing

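Of the genes named in the main comparison, 51 were followed through up to 28 alternatives, and each kept its direction in those that tested it. They were chosen mostly by small p in the same arrays, so a kept direction is partly built in. The count of 1 called probe became 2 without background correction, with the authors' values, with an offset of 50 and with a covariate for detected probes (Acer2 and Vwf in each), and 0 in the fit of the 14 arrays with chip as a block. Without 1 rat it was 1 to 2, the second probe being Gfra4 without saline replicate 3 and Vwf without adjuvant replicate 9. Acer2 then ranged from 1.63 to 2.03, limma adjusted p at most 0.00911. A replicate block left the count at 1, with Acer2 at 1.83 (limma adjusted p = 2.66e-05). Same-numbered arrays of the groups correlated at 0.17, 0.50, -0.21, 0.13 and 0.23 in their deviations, so the numbers were not taken to pair rats. Ethanol minus control gave 1 call with an offset of 50 (Cyp11b1 at -0.74), and cortex minus hippocampus 0 to 1 without 1 rat. For Acer2 that last difference was 0.0580 without background correction, 0.0488 with the authors' values and 0.148 without saline replicate 2. Median scaling shifted the median of all named genes to -0.13, and the hemoglobin score difference to 0.52. Leaving out 1 rat moved that score difference between 0.57 and 0.73 and the difference in detected probes between -434 (without saline replicate 1) and 185 (without saline replicate 5). Relative to all named genes, 5 of 29 list medians moved by more than the spread among saline rats: the glucocorticoid-induced genes without background correction (0.17 in place of 0.31), the endothelial genes with the hemoglobin covariate (-0.06), endoplasmic reticulum stress (-0.06 with median scaling), neutrophil genes (0.0068 with median scaling) and neurotrophins (0.0206 without saline replicate 1). The list alternatives without saline replicate 1 or with the hemoglobin covariate, and all those of the hemoglobin score and of detected probes, were chosen after seeing the data. The number of arrays limits precision.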
